A study of Homo sapiens with 3 samples.

Results

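The cadherins and the factors of the epithelial-mesenchymal transition were read in MCF10A cells from 10 genes chosen by symbol: CDH1, CDH2 and CDH3, which encode E-cadherin, N-cadherin and P-cadherin, VIM (vimentin), FN1 (fibronectin), and the transcription factors SNAI1, SNAI2, TWIST1, ZEB1 and ZEB2. All 10 were found by Ensembl identifier among the 62754 genes of the deposited table, and all 10 are protein-coding, of 20046 such genes. MCF10A cells are human mammary epithelial cells that grow without limit but form no tumours. The cells carried an empty retroviral vector of a Tet-One inducible system without any gene of interest, had been selected with puromycin, and received no doxycycline or other treatment. RNA was taken 27 h after seeding in 3 replicates, EV replicates 1 to 3, and the sample labels used here name no batch. With 1 condition there is no comparison between groups, and the questions asked of the data were how the genes rank, how far their replicates differ, and which related genes were present beside them. No source used here says whether the replicates were separate cultures, so the spread between them may be technical.

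Classical cadherins are adhesion receptors that join neighbouring cells, and their cytoplasmic tails bind catenins, which connect them to actin. E-cadherin is characteristic of epithelia, P-cadherin of basal and myoepithelial layers such as those of the breast, and N-cadherin of neural and mesenchymal cells. In the epithelial-mesenchymal transition, cells lose epithelial adhesion and gain vimentin filaments and a fibronectin matrix, and the SNAI, TWIST and ZEB factors are known as repressors of CDH1 or inducers of the mesenchymal state. The miR-200 family and miR-205 are known to repress ZEB1 and ZEB2 after transcription.

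The mature miRNAs of this group are printed from RefSeq (GRCh38.p14), 5′ to 3′, with the seed (bases 2 to 8) in capitals, since their seeds define the sites described next in ZEB1 and ZEB2. All 6 miRNAs looked for were matched by name. The first 3 share a seed, the next 2 share another that differs in 1 base, and the last stands alone.
miR-200b-3p: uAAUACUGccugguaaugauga
miR-200c-3p: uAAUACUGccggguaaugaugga
miR-429: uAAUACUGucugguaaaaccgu
miR-200a-3p: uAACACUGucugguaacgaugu
miR-141-3p: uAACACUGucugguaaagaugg
miR-205-5p: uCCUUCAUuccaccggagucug

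Matches to these seeds were counted on the sense strand of the 3′ UTR of the canonical GENCODE transcript of each gene. The match to the first seed reads CAGTATT in DNA letters. That of the second reads CAGTGTT, and that of miR-205-5p reads ATGAAGG. ZEB1, with a 3′ UTR of 2540 bases, held 6 matches to the seed of miR-200b-3p, miR-200c-3p and miR-429, 3 to that of miR-200a-3p and miR-141-3p, and 1 to that of miR-205-5p. Of the 1217 other protein-coding 3′ UTRs within 10% of that length, 26.4% held the first match at least once and 0 held it as often as ZEB1, 0.575% held the second as often, and 18.0% held the match to miR-205-5p. ZEB2, with 5370 bases, held 5, 4 and 0 matches. Of 571 other 3′ UTRs of like length, 44.3% held the first match and 0 held it as often, and 1.23% held the second as often. Among the other genes, FN1 held 2 matches to the first seed in 690 bases, as 1 of 941 other 3′ UTRs of like length did. SNAI2 held 1, as 11.9% of such UTRs did, and CDH3 held 1 match to the seed of miR-205-5p, as 13.3% did. CDH1, CDH2, VIM, SNAI1 and TWIST1 held no match to any of the 3 seeds. A match is a run of letters and was not tested as a site of repression. The 6 sites of the first seed in ZEB1, on the plus strand of hg38, and the 5 in ZEB2, on the minus strand, are shown with 30 bases each and the match in capitals, because they are the most numerous in the group.
ZEB1 at chr10:31527621-31527650: gttttatcttatCAGTATTatcactcttat
ZEB1 at chr10:31527715-31527744: ctaaatccgcttCAGTATTttattatgttt
ZEB1 at chr10:31528144-31528173: agtgccatttctCAGTATTttcaaggctct
ZEB1 at chr10:31528495-31528524: atttttacctatCAGTATTattttatttct
ZEB1 at chr10:31528565-31528594: cttcaaacctggCAGTATTaatacccttct
ZEB1 at chr10:31529216-31529245: tttcatcattatCAGTATTttctttggaaa
ZEB2 at chr2:144389042-144389071: actaccatacatCAGTATTtttattattat
ZEB2 at chr2:144388979-144389008: actacaatgcatCAGTATTatgattcctct
ZEB2 at chr2:144388621-144388650: aagcacccatgtCAGTATTagaagaatagg
ZEB2 at chr2:144388536-144388565: cattaattttgtCAGTATTacaccaaactg
ZEB2 at chr2:144388405-144388434: tactgtagtgtaCAGTATTatagttcttca
The single match to the seed of miR-205-5p in ZEB1, of a kind found in 18.0% of UTRs of like length, lies between them.
ZEB1 at chr10:31528070-31528099: atgtggtaacatATGAAGGatatgacatga

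**Figure D1:**
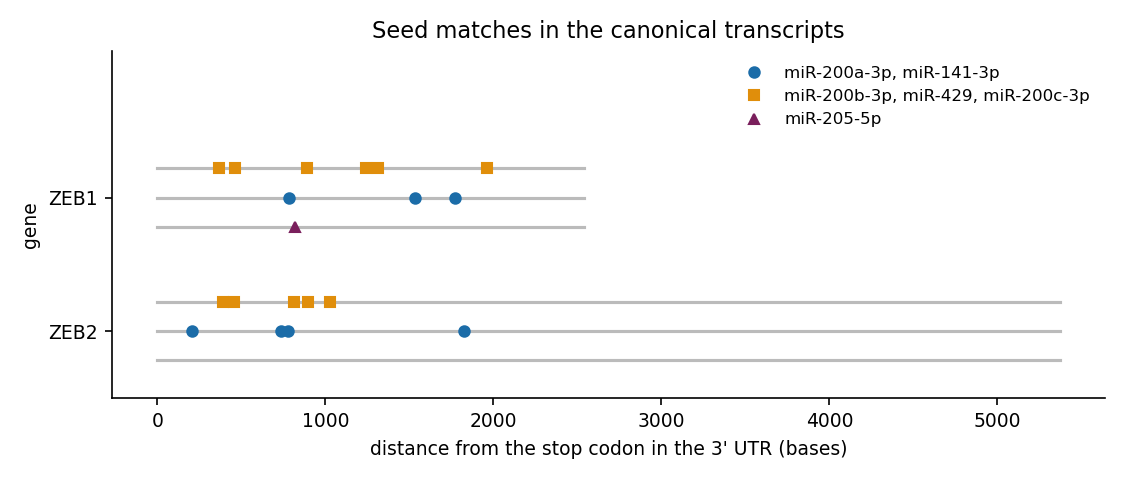
Seed matches along the 3′ UTRs of ZEB1 (2540 bases) and ZEB2 (5370 bases), by distance from the stop codon in bases, with 1 line for each seed and the line length equal to the UTR. ZEB1 holds 6, 3 and 1 matches along its length, and the 5 matches of ZEB2 to the seed of miR-200b-3p all lie within its first 1029 bases.

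Expression was deposited as TPM, read counts per length of transcript on a common scale, so that levels can be set side by side per length. With gene lengths from GENCODE release 44, the values were whole multiples of 1 smallest step for 100% of annotated genes, within a tolerance of 0.01. At 1 read per step, the depth was 15273329, 15446347 and 11166546 reads in replicates 1 to 3. All 10 genes averaged 1 TPM or more, the level the study used to call a gene expressed. The same held for 56.7% of protein-coding genes and 24.9% of all genes. The median of the 10 means was 25.8 TPM, against 3.75 TPM over all protein-coding genes. Together the 10 genes took 0.259%, 0.265% and 0.217% of all TPM in replicates 1, 2 and 3.

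By the mean over replicates, the order was VIM, FN1, CDH3, SNAI2, CDH1, CDH2, TWIST1, ZEB1, ZEB2 and SNAI1, and it was the same in every replicate. It spanned from 1533 TPM for VIM to 1.06 TPM for SNAI1. The spread was narrow for 9 of the genes, with a coefficient of variation between 6.89% for CDH1 and 18.4% for TWIST1, and was 45.3% for SNAI1, which rested on 28 reads in all.

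**Figure D2:**
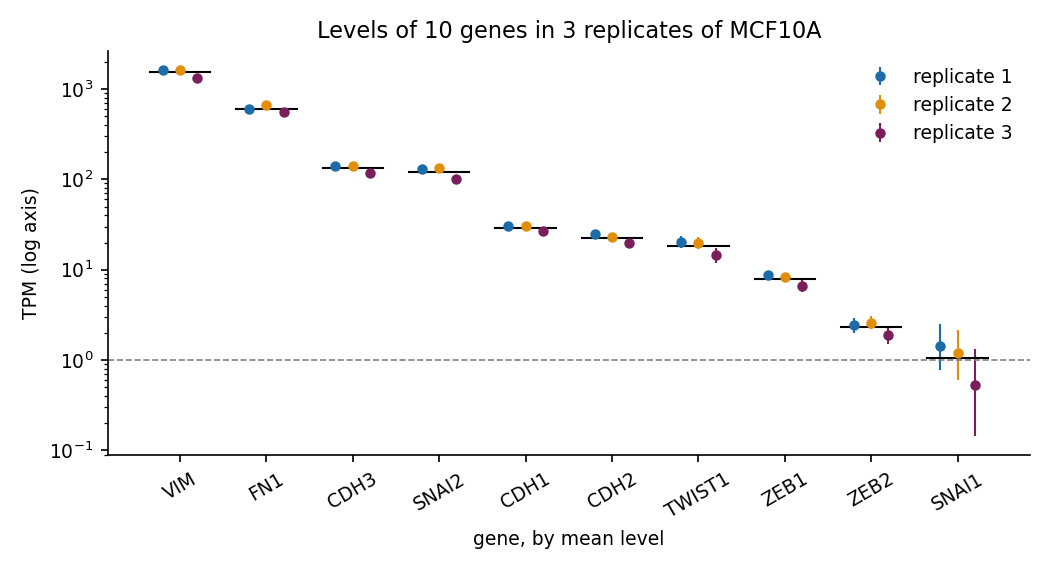
TPM of the 10 genes in each of the 3 replicates (log axis), with the mean as a black line, exact 95% Poisson intervals of the reads as bars, which cover counting error only, and a dashed line at 1 TPM. VIM and FN1 lie between 551 and 1638 TPM, and SNAI1 is the only gene with a replicate below the dashed line, at 0.524 TPM.

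Of the 3 cadherin genes, that of P-cadherin had the highest RNA level, and protein was not measured. CDH3 (ENSG00000062038, chromosome 16, 68636189 to 68727468 on hg38) was measured at 140, 141 and 118 TPM from 3277, 3380 and 2356 reads, with a mean of 133 ± 12.7 TPM (SD, n = 3). CDH1 (ENSG00000039068), its neighbour on the same strand at 68737292 to 68835537, was measured at 30.3, 30.1 and 26.7 TPM, with a mean of 29.1 ± 2.0 TPM (SD, n = 3). CDH2 (ENSG00000170558, chromosome 18, 27932879 to 28177946) was measured at 25.1, 23.0 and 19.6 TPM, with a mean of 22.6 ± 2.81 TPM (SD, n = 3).
CDH3 was thus above CDH1 and CDH2 in every replicate, with no overlap of the values. Within a replicate CDH3 was 4.57-fold higher than CDH1 on geometric average, and the log2 ratio of CDH1 to CDH3 was -2.19 ± 0.04 (SD, n = 3). CDH1 was above CDH2 in 3 of 3 replicates, by 1.29-fold, with a log2 ratio of 0.37 ± 0.09 (SD, n = 3), and the difference of their means, 6.47 TPM, was larger than the SD of either gene. Of the summed TPM of the 3 cadherins, CDH3 made up 71.7%, 72.6% and 71.9%, CDH1 15.5%, 15.6% and 16.2%, and CDH2 12.9%, 11.9% and 11.9% in replicates 1 to 3. Among protein-coding genes, 94.5% had a lower mean than CDH3, 74.4% than CDH1 and 69.9% than CDH2.

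Among 16 other cadherins, mostly classical and type II, 3 had a mean of at least 1 TPM, against 56.7% of protein-coding genes. The median of the list was 0 TPM. The highest of the list was CDH13 (T-cadherin, which is anchored to the membrane by lipid and lacks a cytoplasmic tail), with 24.6, 25.6 and 20.4 TPM, close to CDH2 in level. Of its canonical transcript, 29.9% lies opposite to CDH13-AS2 on the other strand, and the strand setting of the counting is not given. CDH4 (R-cadherin) followed with a mean of 8.29 ± 0.971 TPM and CDH11 with 1.20 ± 0.0845 TPM (SD, n = 3 each). A total of 9 of the 16 had 0 reads in every replicate, among them CDH5, the cadherin of endothelium, for which 0 reads allow up to 0.163 TPM.
Of the catenins, CTNNA1 and CTNNB1 were above every listed cadherin in every replicate. CTNNA1 (alpha-catenin) had a mean of 442 ± 33.1 TPM, CTNNB1 (beta-catenin) 282 ± 15.7 TPM and JUP (plakoglobin, which serves adherens junctions and desmosomes) 116 ± 10.1 TPM (SD, n = 3 each). CTNND1 (p120-catenin) was measured at 3.93, 6.27 and 4.80 TPM, a value that is uncertain because other annotated genes cover 78.6% of its canonical transcript on the same strand. In total 4 of the 7 catenin genes were at or above 1 TPM, and CTNNA2, CTNNA3 and CTNND2 were not. This share of 57.1% was near the 56.7% of all protein-coding genes.

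The genes of the mesenchymal proteins had the highest RNA levels of the group. VIM (ENSG00000026025, chromosome 10, 17228241 to 17237593), the type III intermediate filament of mesenchymal cells, was measured at 1638, 1628 and 1333 TPM from 22960, 23464 and 15906 reads, with a mean of 1533 ± 173 TPM (SD, n = 3). FN1 (ENSG00000115414, chromosome 2, 215360440 to 215436073), the matrix glycoprotein that integrins bind, was measured at 594, 658 and 551 TPM from 28642, 32615 and 22627 reads, with a mean of 601 ± 53.6 TPM (SD, n = 3). Every replicate of VIM was above every replicate of FN1.
VIM ranked 62 and FN1 181 of the 20046 protein-coding genes by mean TPM. Within a replicate VIM was 2.55-fold higher than FN1, with a log2 ratio of 1.35 ± 0.10, and 52.6-fold higher than CDH1, with a log2 ratio of 5.72 ± 0.07 (SD, n = 3 each). FN1 has 27 annotated transcripts, and its splice forms cannot be told apart in a table of genes. Of the canonical transcript of VIM, 45.6% lies opposite to 2 annotated genes on the other strand, of which VIM-AS1 was assigned 40, 63 and 14 reads. How strand was used in counting is not given in the sources used here, and without strand such reads could not be told apart.

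The relatives of vimentin were all low. Of 9 other type III and IV intermediate filament genes, 0 were at or above 1 TPM, against 56.7% of protein-coding genes. The highest was NES (nestin) at 0.300 TPM from 25 reads in all. DES (desmin of muscle) had 0, 4 and 2 reads, and GFAP, INA and NEFH had 0 reads in every replicate.
Of the genes for receptors and assembly of fibronectin, 7 of 9 were at or above 1 TPM, against 56.7% of protein-coding genes. Their median was 56.8 TPM. ITGB1, the beta subunit of most fibronectin integrins, had a mean of 520 ± 55.0 TPM, SDC4 (syndecan-4) 143 ± 8.08 TPM and ITGA5, the partner of ITGB1 in the main fibronectin receptor, 77.4 ± 6.76 TPM (SD, n = 3 each). ITGA8 had 0 reads in every replicate and ITGB3 had 4, 0 and 0.

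Among the 5 transcription factors, SNAI2 (Slug) was far above the others. SNAI2 (ENSG00000019549, chromosome 8) was measured at 129, 134 and 101 TPM from 1919, 2050 and 1283 reads, with a mean of 121 ± 17.6 TPM (SD, n = 3). It made up 79.6%, 80.8% and 81.2% of the summed TPM of the 5 factors. Its close relative SNAI1 (Snail, ENSG00000124216, chromosome 20, 49982980 to 49988886) was measured at 1.45, 1.19 and 0.524 TPM from 13, 11 and 4 reads, with a mean of 1.06 ± 0.478 TPM (SD, n = 3).
SNAI1 was the lowest gene of the group in every replicate, and its replicates lay on both sides of 1 TPM. The exact 95% Poisson intervals of its value were 0.772 to 2.48, 0.596 to 2.13 and 0.143 to 1.34 TPM, so that at this depth no replicate could be placed above or below 1 TPM. SNAI2 was 124-fold higher than SNAI1 within a replicate, with a range from 88.9-fold to 193-fold and a log2 ratio of 6.96 ± 0.57 (SD, n = 3).

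TWIST1 (ENSG00000122691, chromosome 7, 19020991 to 19117636), a basic helix-loop-helix factor, was measured at 20.5, 19.8 and 14.4 TPM, with a mean of 18.2 ± 3.36 TPM (SD, n = 3). SNAI2 was 6.68-fold higher than TWIST1 within a replicate, with a log2 ratio of 2.74 ± 0.08 (SD, n = 3). The difference between CDH2 and TWIST1, next to each other in the order, was 4.33 TPM, against an SD of 3.36 TPM for TWIST1, with CDH2 the higher in 3 of 3 replicates.

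The ZEB factors, zinc finger and homeodomain repressors, were detected in every replicate, below every other gene of the group but SNAI1. Among protein-coding genes, 55.9% had a lower mean than ZEB1 and 47.3% than ZEB2. ZEB1 (ENSG00000148516, chromosome 10, 31318495 to 31529814) was measured at 8.63, 8.28 and 6.61 TPM from 284, 280 and 185 reads, with a mean of 7.84 ± 1.08 TPM (SD, n = 3). ZEB2 (ENSG00000169554, chromosome 2, 144364364 to 144521057) was measured at 2.42, 2.60 and 1.89 TPM from 122, 135 and 81 reads, with a mean of 2.30 ± 0.372 TPM (SD, n = 3).
ZEB1 was above ZEB2 in every replicate, by 3.41-fold, with a log2 ratio of 1.77 ± 0.09 (SD, n = 3). Of 3 antisense genes looked at, ZEB1-AS1 had a mean of 2.76 TPM, VIM-AS1 one of 3.92 TPM, and ZEB2-AS1 1 read in all.

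For the 7 pairs of genes chosen for comparison, the exact sign-flip permutation test (two-sided) gave p = 0.25 each, also after Benjamini-Hochberg adjustment over the 7. This is the smallest p that 3 replicates allow, so the design cannot reach 0.05, and the ratios are given with their spread instead. Of the neighbours in the order, CDH3 and SNAI2 were the closest. Their means were 11.8 TPM apart, less than the SD of 17.6 TPM for SNAI2 over replicates, while within a replicate CDH3 was the higher in 3 of 3, with a log2 ratio of 0.14 ± 0.08 (SD, n = 3). The means of all other neighbours in the order differed by more than the larger of both SDs. The order of CDH3 and SNAI2 also turned with the length used to form TPM. The values follow the longest annotated transcript of each gene, and with the canonical transcript, which is shorter for SNAI2 (2177 against 2826 bases of counting length), the log2 ratio of CDH3 to SNAI2 was -0.24 in place of 0.14.

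**Figure D3:**
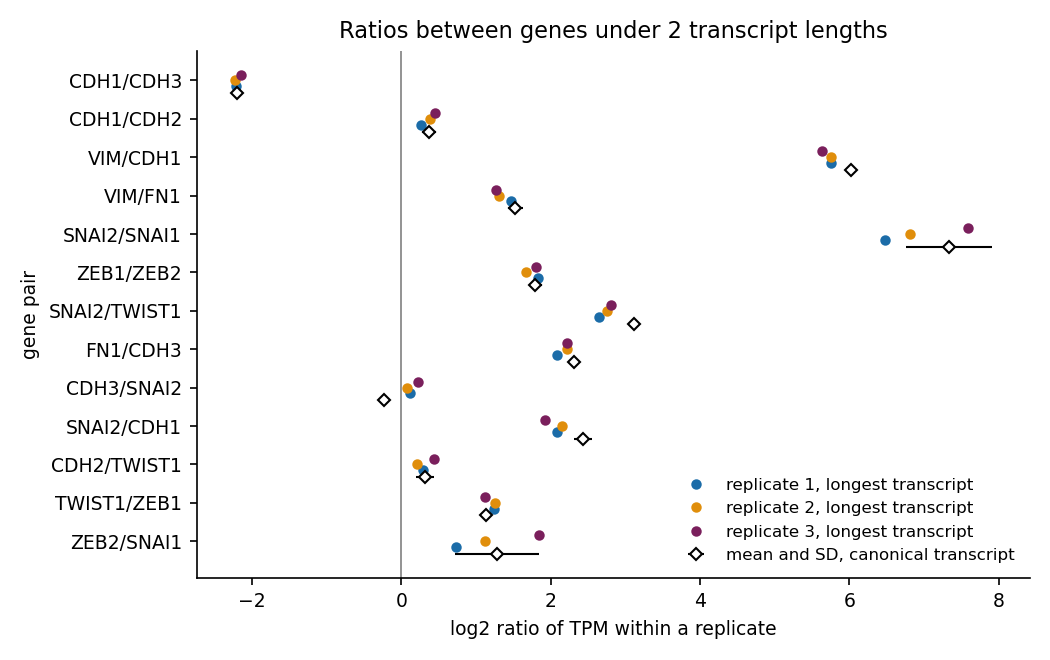
Log2 ratios of TPM between genes within each replicate for the 7 chosen pairs and for 6 further pairs next to each other in level, with filled circles for the deposited values (longest transcript) and open diamonds with SD bars for the canonical transcript. CDH3/SNAI2 is the only pair that crosses 0, from 0.14 to -0.24.

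Windows around the start of the genes were read for the E-box that SNAI and ZEB factors are known to bind. RefSeq windows of 300 bases (250 before and 50 from the start, GRCh38.p14) were read for CDH2, VIM, FN1, ZEB1 and ZEB2, and not for CDH1, CDH3, SNAI1, SNAI2 and TWIST1. On both strands, CAGGTG was found in 20.6% of all 35116 windows of this length and CAGGTA in 9.83%. RefSeq gives several starts for some of these genes, and the windows at the canonical starts of CDH2, VIM, FN1 and ZEB2 held 0 matches to either motif. That of ZEB1 held 3 matches to CAGGTG and 0 to CAGGTA, the most of the 5. The shares above are of windows with at least 1 match, and the share with 3 was not counted. Of the 7 windows of ZEB1, 2 held CAGGTG and 3 held CAGGTA. The window at the canonical start is printed with the matches on either strand in capitals (plus strand, chr10:31318966-31319265). A match of letters was not tested as a binding site, and no factor binding was measured.
ZEB1 window: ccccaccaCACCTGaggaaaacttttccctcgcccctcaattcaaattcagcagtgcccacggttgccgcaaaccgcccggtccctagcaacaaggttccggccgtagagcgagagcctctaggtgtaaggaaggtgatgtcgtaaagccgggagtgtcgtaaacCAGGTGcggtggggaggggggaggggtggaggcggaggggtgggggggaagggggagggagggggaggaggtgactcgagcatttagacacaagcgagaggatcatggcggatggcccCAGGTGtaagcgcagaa

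The host genes of the miRNAs printed above differed widely in level. MIR205HG, the host transcript of miR-205, was measured at 310, 409 and 279 TPM from 5475, 7420 and 4193 reads, with a mean of 333 ± 67.8 TPM (SD, n = 3). MIR200CHG, the host of miR-200c and miR-141, was measured at 2.06, 4.51 and 2.42 TPM from 4, 9 and 4 reads. Every replicate of MIR205HG was above every replicate of MIR200CHG, and with the canonical transcript the mean of MIR205HG was 1129 TPM and that of MIR200CHG 2.44 TPM.
The short precursor genes gave MIR205 186, 235 and 99 reads, with 35.5% of the gene shared with another on the same strand. MIR200C had 2, 3 and 0 reads and MIR141 0, 1 and 1. MIR200A, MIR200B and MIR429 had 0 reads in every replicate, which for such short genes still allows up to 7.52, 7.12 and 8.16 TPM. Mature miRNAs were not measured in these libraries.

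Of 12 other factors linked to the transition, 8 (66.7%) were at or above 1 TPM, against 56.7% of protein-coding genes. The median over the list was 9.38 TPM. TCF3 (E2A), a dimer partner of TWIST proteins, had a mean of 101 ± 19.1 TPM, TWIST2 61.8 ± 10.5 TPM and FOXC2 29.1 ± 7.94 TPM (SD, n = 3 each). TWIST2 was thus above TWIST1 in every replicate, with 61.6, 72.3 and 51.4 TPM. SNAI3, PRRX1, PRRX2 and GSC were below 1 TPM, each with under 10 reads in all.
Of 15 factors that maintain epithelial transcription or splicing, 9 were at or above 1 TPM, with a median of 1.48 TPM. This share of 60% was near the 56.7% of all protein-coding genes at that level. KLF5 had a mean of 151 ± 24.4 TPM, ESRP2, a splicing regulator of epithelial isoforms, 76.0 ± 9.33 TPM and TP63, the p63 factor of basal epithelium, 49.8 ± 6.15 TPM (SD, n = 3 each). GRHL2 and ELF5 had 0 reads in every replicate, which allow up to 0.128 TPM for GRHL2. OVOL1 had 2 reads in all and OVOL2 a mean of 1.48 TPM. FOXA1 lay on both sides of 1 TPM, with 1.19, 0.790 and 1.34 TPM.
All 18 genes for corepressors, partners and turnover of the factors were at or above 1 TPM, against 56.7% of protein-coding genes. They lay between 3.61 TPM for WTIP and 130 TPM for KDM1A, with a median of 50.6 TPM. KDM1A (LSD1), a histone demethylase recruited by the SNAG domain of SNAI proteins, had a mean of 130 ± 17.7 TPM, AJUBA, a LIM protein, 126 ± 17.0 TPM, and CTBP1, the corepressor that ZEB proteins bind, 108 ± 13.9 TPM (SD, n = 3 each).

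**Figure D4:**
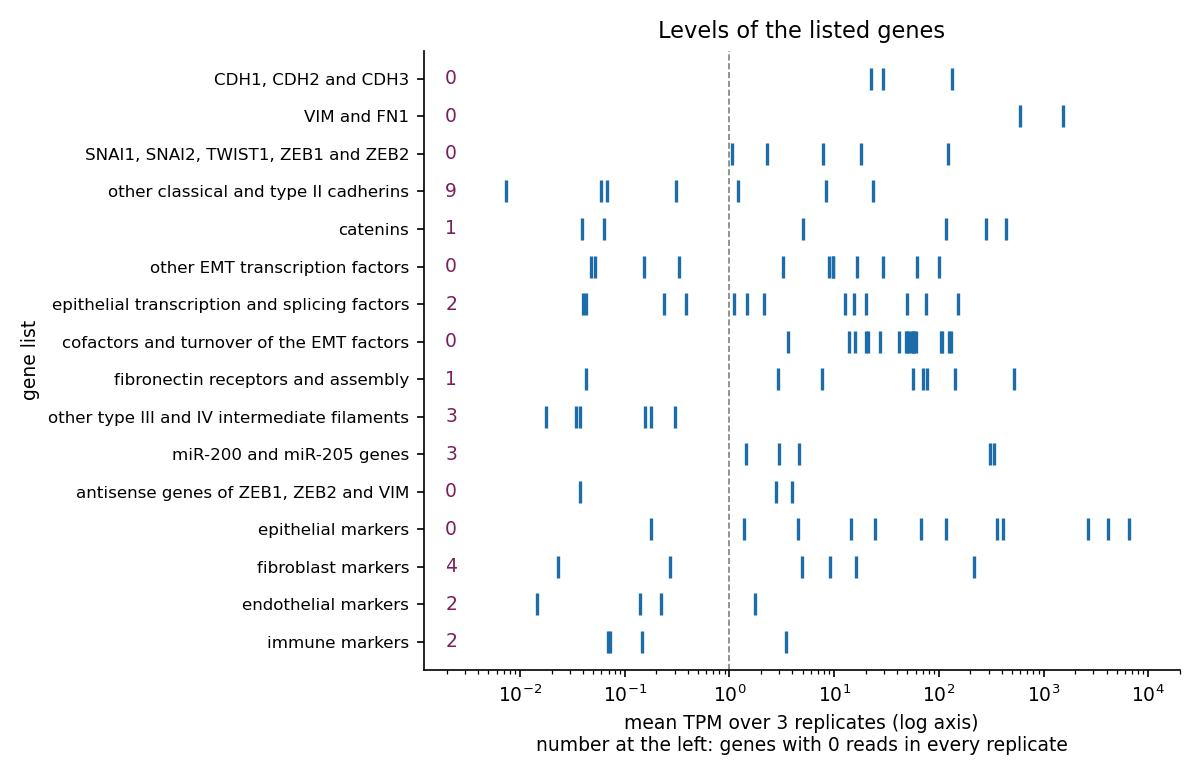
Mean TPM over the 3 replicates (log axis) of every gene of 16 lists, with 1 tick for each gene, a dashed line at 1 TPM, and the number of genes with 0 reads in every replicate at the left. All 18 cofactor genes lie to the right of the line and all 9 other intermediate filament genes to its left.

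The labelled cell type was checked against markers, with the 56.7% of protein-coding genes at or above 1 TPM as the background share. Of 12 epithelial markers, 11 were at or above 1 TPM, with KRT5 at 6612 ± 890, KRT14 at 4144 ± 618 and KRT17 at 2669 ± 296 TPM (SD, n = 3 each), the keratins of basal cells. KRT18 was at 413 ± 44.8, DSP at 362 ± 47.3 and KRT8 at 118 ± 11.4 TPM (SD, n = 3 each). TJP1 was at 67.1 ± 5.18, CLDN1 at 24.8 ± 1.47 and CRB3 at 4.55 ± 0.232 TPM (SD, n = 3 each). EPCAM, an adhesion protein of simple epithelia, was at 14.6 ± 1.19 TPM (SD, n = 3). OCLN was below 1 TPM, and CLDN7 lay on both sides with 0.988, 1.83 and 1.28 TPM.
Of 10 fibroblast markers, 4 were at or above 1 TPM: POSTN with a mean of 219 ± 20.8 TPM, FAP with 16.1 ± 0.653, DCN with 9.05 ± 0.300 and COL1A1 with 4.96 ± 0.390 TPM (SD, n = 3 each). The other 6 were below 1 TPM, of which PDGFRA, COL1A2, LUM and THY1 had 0 reads in every replicate, and the summed TPM of the list was 272, 228 and 247. Whether any cells other than the labelled line contributed to the levels of VIM and FN1 was not tested. Of 6 endothelial markers, PECAM1 alone was at or above 1 TPM (1.77 TPM), and of 6 immune markers, CSF1R alone (3.49 TPM). The RNA is from bulk cultures, so whether the same cells carried CDH1 and VIM, and whether a low level means few cells or little RNA per cell, cannot be told apart.

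Replicate 3 was the lowest of the replicates for all 10 genes, as it was for 82.8% of 8802 genes averaging 10 TPM or more. In this replicate protein-coding genes took 79.6% of TPM, against 91.5% and 89.8% in replicates 1 and 2, and the 10 highest genes took 23.8%, against 12.7% and 13.1%. The log2 ratio of replicate 3 to the mean of the others had a median of -0.24 over the 8802 genes and of -0.29 over the 7 genes of the group at or above 10 TPM. With the protein-coding genes of each replicate rescaled to a sum of 1000000, these medians were -0.06 and -0.11, and replicate 3 was the lowest for 8 of the 10 genes and for 47.8% of the 8802.
The reads of each gene were also compared with equal TPM in the 3 replicates, by a chi-square test over all 15802 genes with at least 15 reads and Benjamini-Hochberg adjustment, a test that compares these libraries and covers counting error only. Of the 10 genes, 7 were called different between replicates at an adjusted p under 0.05, against 54.3% of genes tested. CDH1 (adjusted p = 0.0762, chi-square test over all genes), ZEB2 (adjusted p = 0.106) and SNAI1 (adjusted p = 0.25) were not. With protein-coding genes rescaled, the same chi-square test called 3 of the 10 genes, against 33.4% of genes tested. These were VIM, FN1 and SNAI2, with Benjamini-Hochberg adjusted p-values over all genes of 2.83e-13, 2.26e-47 and 0.000343.
Without replicate 3, FN1 was the 1 gene of the 10 called under either scaling, against 21.3% of genes tested as deposited and 21.5% after rescaling. It was higher in replicate 2 than in replicate 1 by 0.15 on the log2 scale. SNAI2 was lower in replicate 3 than the mean of the others by a log2 ratio of -0.38 as deposited and -0.19 after rescaling. TWIST1 had log2 ratios of -0.49 and -0.30 and SNAI1 of -1.33 and -1.15, and neither gene was called after rescaling. These 2 genes rest on 456 and 28 reads in all, against 83884 for FN1 and 62330 for VIM. With more reads the test calls smaller differences, so a gene that was not called is not shown to be steady. The shares of genes tested were not matched for the number of reads.

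**Figure D5:**
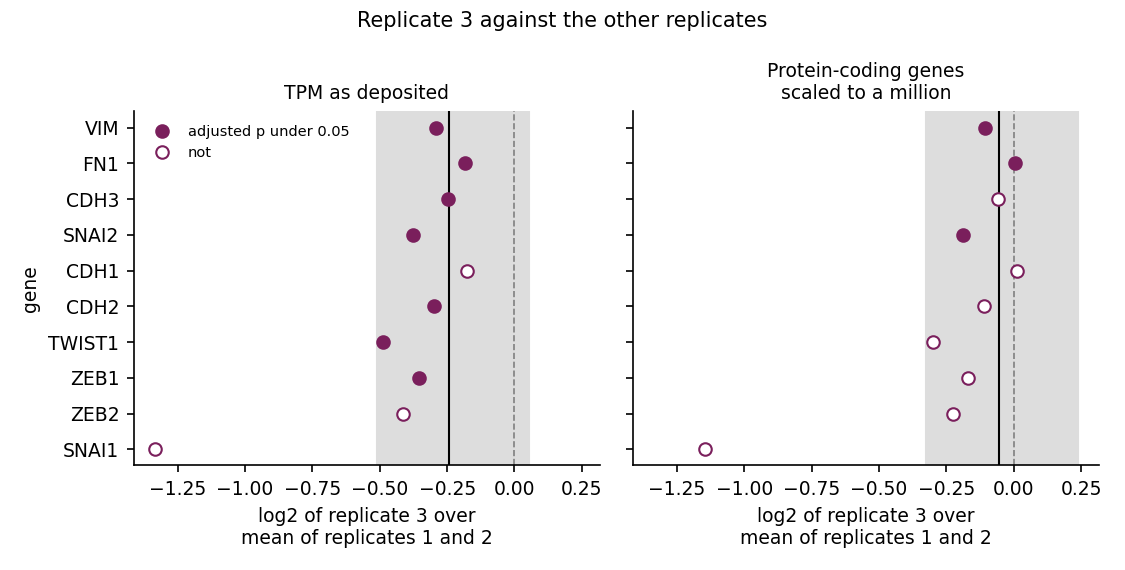
Log2 ratio of replicate 3 to the mean of replicates 1 and 2 for each gene, as deposited (left) and with protein-coding genes scaled to a sum of 1000000 (right), with the range from the 5th to the 95th percentile of 8802 genes in grey, their median as a black line and filled circles for an adjusted p under 0.05. The number of filled circles is 7 on the left and 3 on the right.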

How the data were processed

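RNA-seq was performed on 3 replicates of MCF10A cells. The authors prepared ribosomal RNA-depleted libraries from 300 ng of RNA, used Seq2science to map reads to hg38 and to count them per gene. The submitters' processing notes name STAR, fastp and MultiQC. Versions, annotation release, filters and strand setting are not given in the sources used here. The authors deposited TPM per gene and replicate, each replicate summing to 1000000.

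Annotation was GENCODE release 44 on hg38, which holds 62700 of the 62754 genes. Reads were recovered as TPM times the length of the longest transcript, counted with 1 base less per exon, divided by the smallest step. They rest on that step being 1 read. A gene at 0 was given a limit of 3 reads per library. Intervals are exact Poisson at 95% and cover counting error only. Levels were compared as log2 ratios within a replicate, without a pseudocount.

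The members and the gene lists, 141 genes in 16 lists, were chosen with earlier results of these data known. All members are named, and from each list the 3 genes with the highest means at or above 1 TPM, those on both sides of 1 TPM, all miRNA and antisense genes, and for 5 members the 2 genes nearest in level. Other genes named were chosen after their values were seen, as were the searches for seed matches and the pairs of neighbours in level. The table's 54 genes without annotation entered only counts over all genes and scaling. Alternatives covered the cutoff, the summary, the pseudocount, the scaling, the transcript length, the filter on reads and each replicate left out. The chi-square test was tested on simulated reads of 15884 genes with 200 genes changed 2-fold in replicate 3, of which it called 97.5%. An unadjusted p under 0.05 from this test was given for 5.45% of unchanged genes. The simulated reads held counting error only. The 200 genes were drawn from genes with more reads than the filter of 15 requires. The 97.5% therefore does not cover genes with few reads, such as SNAI1. Scripts ran in Python 3.11.15 with scipy 1.17.1, pandas 2.3.3 and numpy 2.4.6, and figures were drawn with matplotlib 3.10.9.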

Additional observations from a re-analysis of the deposited data

How the results depend on the processing

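No paired analysis was possible because there is 1 group, so that replicate numbers pair no samples across groups. The ratios between genes were taken within a replicate. The number of genes of the group at or above 1 TPM was 10, and 9 with a cutoff of 2 TPM, with every replicate required, with the canonical transcript length, and without replicate 1 or replicate 2. SNAI1 was the gene below, with 0.857 TPM by the canonical length. The length of SNAI1 itself is 1702 bases under both settings, so that only the rescaling of all genes to a common sum moved its value. The number called different between replicates was 7, and 3 with protein-coding genes summing to 1000000. It ranged from 1 (without replicate 3, FN1, against 21.3% of genes tested) to 8 (without replicate 1, against 46.7%). With that rescaling added, an alternative chosen after seeing the data, it was 3, 3 and 1 without replicates 1, 2 and 3, against 29%, 12.2% and 21.5% of genes tested. With the canonical length, the log2 ratio was 6.03 for VIM/CDH1, 1.53 for VIM/FN1 and 3.12 for SNAI2/TWIST1, each further from 0, and that of CDH3/SNAI2 was -0.24, reversed from 0.14. With a pseudocount of 1 TPM it was 5.91 for SNAI2/SNAI1 and 1.42 for ZEB1/ZEB2, each nearer to 0, as a pseudocount does by construction to low genes. The 7 chosen pairs kept their direction under every alternative tried. With 3 replicates, a mean cannot shift by 1 SD when 1 is left out, so that this says nothing on the stability of ratios or levels. Depth limits SNAI1, MIR200CHG and the miRNA precursors, which rest on under 30 reads in all except for MIR205.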

Other observations

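Genes close in level to 5 members were found among 20036 other protein-coding genes by the Euclidean distance of log2(TPM + 1) over the 3 replicates. With 3 replicates of 1 condition this distance compares levels rather than patterns of regulation. Nearest to CDH1 were RPS6KC1 (distance 0.0138) and FEM1A (0.0183), and 315 genes lay within a distance of 0.2. For CDH3 these were TOMM34 at 133 TPM and TXN2 at 134 TPM, and for SNAI2 they were SMARCA4 at 122 TPM, a subunit of a chromatin remodelling complex, and ATXN2L at 121 TPM. Nearest to VIM were RPLP0, a ribosomal stalk protein, at 1531 TPM and S100A16 at 1528 TPM, and 7 genes lay within 0.2. Nearest to FN1 were H1-3, a linker histone, at 602 TPM and RPS16, a ribosomal protein, at 613 TPM.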
